A study of Arabidopsis thaliana with 18 samples.

Results

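The comparison described here set the middle zone of the Arabidopsis root, called transition cambium, against the apical zone, called procambium, after treatment with the synthetic cytokinin BAP. It used 6 of the 18 ATH1 arrays of the series, 3 for each zone, taken by the group named in the array titles. All 6 came from Columbia wild-type seedlings that carried ARR15::GFP, a reporter directed to the endoplasmic reticulum, so both zones were sampled through the same cytokinin-responsive promoter. Seedlings grew for 6 days on standard medium and then for 48 h on medium with 100 nM BAP, and were 8 days old at harvest. Root segments were cut, protoplasts were made, GFP-positive cells were sorted, and their RNA was amplified in 2 cycles before hybridisation. For reference, the same reporter was profiled in untreated seedlings of 8 days (2 transition cambium, 2 procambium and 3 cambium arrays) and in BAP-treated cambium from the basal zone (3 arrays). A further 2 arrays held ARR5::GFP cells of untreated 6-day-old seedlings, labelled as procambium and lateral root cap.

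Procambium is the strip of dividing cells between young xylem and phloem, and it gives rise to the vascular cambium, the meristem that thickens the root. Cytokinin promotes the divisions of both tissues and induces the type-A response regulators, which damp the same pathway. The peptide of CLE41 and CLE44, made in the phloem, acts on cambial cells through a receptor kinase and keeps them from becoming xylem.

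Values were the deposited log2 GCRMA levels. A zone difference is the transition cambium mean minus the procambium mean, with the standard error of the fit, and it was called at an adjusted p below 0.05 in limma with Benjamini-Hochberg adjustment over 13202 probe sets. Because values end at a floor near 2.17, a level below log2 5 was taken as dim. Where the dimmer zone was below log2 5 on all 3 arrays, the fold is given as a lower bound against log2 5. Of the 13202 probe sets, 3863 (29.3%) were called, 2076 (15.7%) higher in transition cambium and 1787 (13.5%) higher in procambium. Over the 7036 genes with a named probe set the shares were 14.3% and 14% (28.3% in either direction), and the median difference was -0.01.

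The 3 and 3 arrays did not overlap for 44.7% of the 13202 probe sets, and 28.5% were both called and free of overlap. Arrays of a zone correlated at 0.951 to 0.965 for transition cambium and 0.918 to 0.975 for procambium, and arrays of different zones at 0.739 to 0.856. Transition cambium replicate 3 lay farthest from procambium, at 0.739 to 0.769, whereas replicates 1 and 2 lay at 0.803 to 0.856. Without transition cambium replicate 3 the number of calls was 2575, and 2549 of them were among the 3863. Without any 1 of the 6 arrays in turn, 2318 calls remained throughout, 1289 higher in transition cambium and 1029 higher in procambium.

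Of 5 measured regulators of the cambium 4 were higher in transition cambium, against 14.3% of all genes, and LHW was not called. The list held 29 regulators, of which these 5 had a named probe set and passed the filter on dim values. MOL1, a receptor-like kinase that limits cambium activity, stood at 9.6, 9.7 and 9.9 on the transition cambium arrays and at 7.3, 7.7 and 7.6 on the procambium arrays. The zones did not overlap, and the difference was 2.23 ± 0.27 (adjusted p = 2.7e-05, limma). PHV, a class III homeodomain-leucine zipper factor of vascular patterning, differed by 2.70 ± 0.35 (adjusted p = 5.2e-05, limma). CLE41 stood at 8.4, 8.7 and 8.9 against 7.4, 6.2 and 6.6, a difference of 1.94 ± 0.32. CLE44 was at least 1.30-fold higher, with all procambium arrays near the floor and transition cambium arrays at 5.7, 3.9 and 6.5. LHW, a basic helix-loop-helix factor of vascular divisions, stood between 8.0 and 8.3 on all 6 arrays and did not pass the test (-0.02 ± 0.22). Without BAP the LHW difference was 1.54, and the change between the conditions was -1.56 (adjusted p = 0.018, limma).

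Of 10 type-A response regulators 2 were measured, and 1, RR16, was called, higher in procambium, against 14% of all genes. It was at 5.5, 5.8 and 5.3 in transition cambium and at 6.6, 6.5 and 7.4 in procambium, a difference of -1.29 ± 0.33 (adjusted p = 0.009, limma). ARR15, whose promoter drove the reporter used for the sort, differed by -0.96 ± 0.38 and did not pass (adjusted p = 0.072, limma). The cytokinin N-glucosyltransferase UGT76C1 was at least 1.27-fold higher in transition cambium, and its call ended when any of 5 of the 6 arrays was left out, with adjusted p from 0.0735 to 0.128 in limma. LBD16, a factor of lateral root initiation, was at least 1.61-fold higher in procambium.

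Tubulins were higher in transition cambium. Of 10 genes in the list of tubulins and kinesins 8 were called in that direction and 1, TUB1, in the other, against 14.3% and 14% of all genes, with a list median of 1.25. TUA1, an alpha-tubulin, stood at 8.3, 8.0 and 8.4 against 6.9, 6.5 and 6.2, and TUB6, a beta-tubulin, at 11.93, 12.01 and 12.05 against 10.17, 10.80 and 9.96. Neither gene overlapped between zones, with differences of 1.74 ± 0.30 and 1.68 ± 0.31. KINESIN-12B, a motor of the division plane, was at least 3.84-fold higher. TUB1 differed by -1.84 ± 0.64, and its call ended without any 1 of the 6 arrays. The counts were 5 and 0 without transition cambium replicate 3, and also 5 and 0 without procambium replicate 3. In untreated roots limma called 0 genes of the list higher in transition cambium (2 at an unadjusted p below 0.05) and 2 higher in procambium. The test of the change with BAP called 0 of the 10 (2 at an unadjusted p below 0.05). The list, matched by name, did not hold the kinesin KICP-02. That gene was at least 2.70-fold higher in procambium, and its zone difference changed with BAP by -3.44 (adjusted p = 0.0011, limma).

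Of 6 measured genes of mitosis and the cell cycle 3 were called, all higher in transition cambium, against 14.3% of all genes. BUB3.1, of the spindle checkpoint, differed by 1.70 ± 0.30, and AUR1, an Aurora kinase, by 1.66 ± 0.39, both higher in transition cambium. TSO1, a cell-cycle regulator, was the last of the 3, and its call ended when any of 5 arrays was left out. AUR1 changed with BAP, from -0.81 without it to 1.66 with it (interaction adjusted p = 0.031, limma). Among 6 replication and histone genes only 1 was called, close to the 14.3% of all genes: HTB2, a histone H2B, at 1.11 ± 0.33. Its call ended without transition cambium replicate 3 or without procambium replicate 2 or 3, with adjusted p of 0.0891, 0.0777 and 0.0534 in limma. Of 22 genes in the list of microtubule-associated TRM, IQD and SP1L families, 8 were called higher in transition cambium and 2 in procambium, against 14.3% and 14% of all genes. The 2 called higher in procambium were below the share of all genes. The calls of TRM20, IQD31 and TRM26 ended when any of 4, 3 and 3 arrays was left out. Procambium replicate 1 was among those arrays for each gene. That list matched names, and its member TRM82, a tRNA methyltransferase subunit by name, was not called.

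Wall-loosening expansins gave the largest difference among named genes measured on both sides. EXPB3, a beta-expansin, stood at 11.51, 11.95 and 12.18 in transition cambium and at 6.36, 6.15 and 6.88 in procambium. No array overlapped, and the difference of 5.42 ± 0.52 was a 42.7-fold higher level (adjusted p = 4.57e-06, limma). In BAP-treated cambium EXPB3 was at 10.11, 11.23 and 10.67, and the step from transition cambium to cambium was not called. EXLA3, EXPA15 and EXLA1 were also higher in transition cambium, by 3.80 ± 0.39, 3.20 ± 0.44 and 0.96 ± 0.25. In all, 6 of 12 expansins were called higher in transition cambium and 3, EXPA9, EXPA7 and EXPB1, in procambium, against 14.3% and 14% of all genes. EXPA7, known from root hairs, was at 2.4, 5.8 and 7.4 in procambium, and its call ended when any of 5 arrays was left out.

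Wall enzymes were called in both directions. Among 7 family 9 glycosyl hydrolases, which cut glucan chains, GH9B8, GH9C2 and GH9B13 were higher in transition cambium by 3.98 ± 0.34, 2.96 ± 0.52 and 2.15 ± 0.29. GH9C1 and GH9B6 were higher in procambium, and the shares over all genes were 14.3% and 14%. GH9C1 was near the floor on every transition cambium array and at 8.50, 6.90 and 7.88 in procambium, at least 6.78-fold higher. GH9B6 stood at 5.12, 6.18 and 3.33 against 8.51, 9.66 and 10.23. Of 8 xyloglucan-modifying enzymes XTH32 was at least 4.26-fold higher in transition cambium, and XTH16, XTH19 and EXGT-A3 were higher in procambium, where 1 was called without transition cambium replicate 2 or 3 or procambium replicate 2. Of 17 TBL genes, a family of wall polysaccharide acetyltransferases, 3 were called in each direction, close to the 14.3% and 14% of all genes. The 1 of 8 xyloglucan-modifying enzymes called towards transition cambium was also close to that share. TBL36 stood at 12.54, 12.24 and 12.51 against 9.98, 8.62 and 8.85, and TBL21 at the floor against 7.2, 7.6 and 7.4, at least 5.30-fold higher in procambium. IRX15-L, of xylan synthesis, was at least 5.23-fold higher in transition cambium, whereas CSLA03, of the glucomannan synthase family, was at least 3.27-fold higher in procambium.

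**Figure D1:**
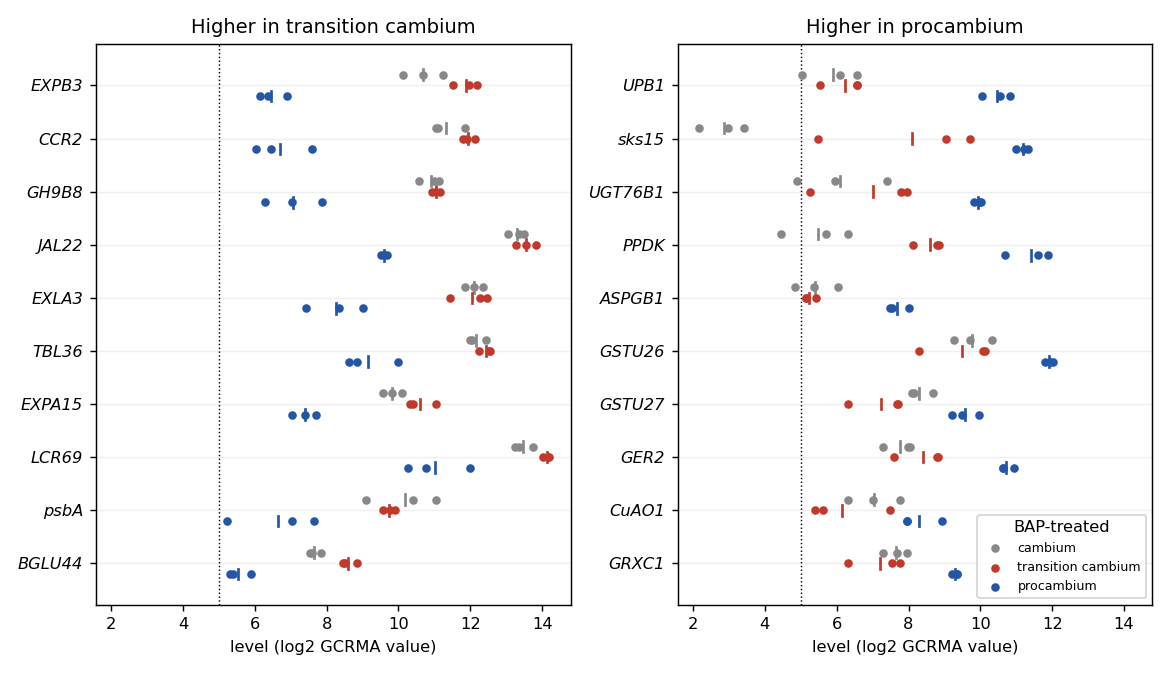
Levels (x axis, log2 GCRMA value) of the 10 named genes with the largest difference in each direction that were at log2 5 or more on all 6 arrays. Points are arrays, short bars are group means (n = 3), grey is BAP-treated cambium, red is transition cambium, blue is procambium, and the dotted line marks log2 5. EXPB3 sits at 11.51 to 12.18 in transition cambium and 6.15 to 6.88 in procambium, whereas sks15 sits at 5.49 to 9.72 and 11.00 to 11.32.

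Other genes with the largest differences towards transition cambium, shown in the plot of levels by array, included CCR2, a cinnamoyl-CoA reductase of lignin synthesis. It stood at 11.81, 11.90 and 12.12 against 7.60, 6.46 and 6.03, a 37.9-fold higher level. JAL22, a jacalin-related lectin, differed by 3.97 ± 0.53, LCR69, a defensin-like peptide, by 3.12 ± 0.34, and BGLU44, a beta-glucosidase, by 3.07 ± 0.29. Among genes dim in procambium, the MAP kinase ATMPK13 stood at 8.98, 8.16 and 9.10 in transition cambium, at least 13.4-fold higher. PTL, a trihelix transcription factor, stood at 7.81, 7.34 and 7.58, at least 5.96-fold higher. NAMT1, a methyltransferase, and DGL, a lipase, were at least 13.1-fold and 5.08-fold higher. The bounds for NCRK, a receptor-like kinase, ZIP6, a zinc transporter family member, TRM15 and the subtilase SBTI1.1 were 5.53, 4.98, 4.24 and 3.90. Genes known by a locus code whose synonyms name a product were AT1G59740 (NPF4.3), AT1G74470 (geranylgeranyl reductase) and AT3G52060, at 2.39, 2.16 and 1.46. The call of AT3G52060 ended without transition cambium replicate 1 or 3 (adjusted p = 0.0516 and 0.052, limma).

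On the procambium side UPB1, a factor that controls peroxidases where root cells leave the division zone, led the genes measured on both sides. It stood at 6.56, 6.56 and 5.55 in transition cambium and at 10.83, 10.05 and 10.54 in procambium, a difference of -4.25 ± 0.58. PPDK, pyruvate orthophosphate dikinase, differed by -2.81 ± 0.75, ASPGB1, an asparaginase, by -2.45 ± 0.33, and GER2, of GDP-fucose synthesis, by -2.32 ± 0.41. GRXC1, a glutaredoxin, differed by -2.09 ± 0.43. UGT76B1 and GSTU26 stood lower on transition cambium replicate 3 than on the other 2, and without that array neither was called (adjusted p = 0.0914 and 0.0819, limma). CuAO1, a copper amine oxidase, was not called without transition cambium replicate 1 or 3 or procambium replicate 2, with adjusted p of 0.0566, 0.0714 and 0.0565 in limma. Among genes dim in transition cambium, the bounds were 3.99-fold for MSRB6, a methionine sulfoxide reductase, 3.79-fold for CHX20, a cation/proton exchanger, and 2.97-fold for ALN, allantoinase. UGT76D1, CCOAMT and KICP-02 had bounds of 3.89, 2.92 and 2.70. PDF2.5, a defensin, was at 8.90, 4.73 and 8.30 in procambium, and its call ended when any of 4 arrays was left out. AT2G46140 (LEA27) differed by -1.35. AT1G80910 and AT1G57620 differed by -1.11 and -1.03, and those calls ended when any of 3 and of 5 arrays were left out.

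Of 11 glutathione transferases, enzymes of detoxification, 5 were called higher in procambium, against 14% of all genes. The 2 called higher in transition cambium were close to the 14.3% of all genes, and the list median was -1.42. Without transition cambium replicate 3 these counts were 3 and 1. GSTU27 stood at 7.70, 7.67 and 6.32 against 9.97, 9.50 and 9.21, and GSTU25 at 12.9, 13.3 and 12.0 against 13.9, 14.2 and 14.3. UDP-glycosyltransferases, which attach sugars to hormones and secondary metabolites, had 11 of 32 called higher in transition cambium, against 14.3% of all genes, with a list median of -0.14. The 5 called higher in procambium were close to the 14% of all genes. Without procambium replicate 1 the counts were 8 and 9. The flavonol glycosyltransferase UGT78D2 stood at 8.8, 8.2 and 9.0 against 6.2, 7.1 and 6.4, and UGT74B1, of glucosinolate synthesis, at 12.4, 12.3 and 12.5 against 9.8, 10.6 and 10.5. The glucosinolate carrier GTR1 was higher in transition cambium by 1.73 ± 0.28. Of 13 beta-glucosidase and glucosinolate genes 5 were called higher in transition cambium and 1, BGLU16, in procambium, against the same shares of all genes.

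Factors and recycling genes of the procambium side came from lists assembled once the gene names on the array were known. Of 13 bZIP factors 6 were called higher in procambium and, by limma, 0 in transition cambium (2 at an unadjusted p below 0.05), against 14% and 14.3% of all genes. bZIP44 stood at 9.4, 9.4 and 8.9 against 10.8, 11.0 and 10.8. Without transition cambium replicate 3, or without procambium replicate 1, 3 bZIP genes were called. Of 11 autophagy genes 5 were called higher in procambium, against 14% of all genes, all of them ATG8 genes, whose products coat the autophagosome. ATG8E stood at 7.2, 7.1 and 7.5 against 9.5, 8.5 and 8.9, a difference of -1.70 ± 0.42. The autophagy count was 2 without transition cambium replicate 1 or 3, and 2 without procambium replicate 1 or 3, close to the share of all genes.

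Of 63 plastid-encoded genes 17 were called higher in transition cambium, against 14.3% of all genes, and limma called 0 in procambium (0 also at an unadjusted p below 0.05). Their median difference was 0.82. psbA, for a core protein of photosystem II, stood at 9.89, 9.76 and 9.57 against 5.23, 7.65 and 7.05. Procambium replicate 1 was lowest for many of these genes, and without it 3 were called, fewer than the share of all genes. Without transition cambium replicate 1 the count was 8 and without replicates 2 and 3 it was 7 and 11. In untreated roots 38 of the 63 were called higher in transition cambium. The test of the change with BAP called 1, in the negative direction. At an unadjusted p below 0.05 limma gave 16 negative and 0 positive changes, against 2546 of all 13202 probe sets in either direction. Of 18 nuclear photosynthesis and chlorophyll genes 4 were called higher in transition cambium and 1, hemb2, in procambium, against 14.3% and 14% of all genes; THO1, in that list by a shared synonym only, was not called. Without transition cambium replicate 3, or procambium replicate 1 or 2, 2 of the 4 were called.

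**Figure D2:**
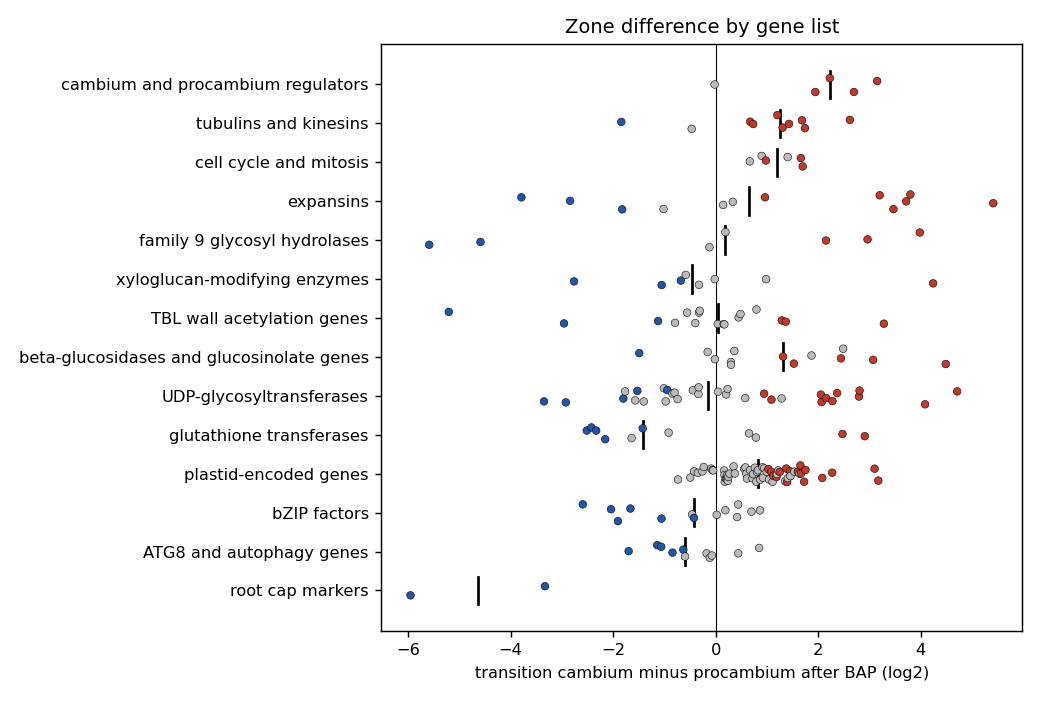
Zone difference after BAP (x axis, transition cambium minus procambium, log2) for each measured gene of 14 lists. Points are genes, red called higher in transition cambium, blue called higher in procambium and grey not called, and the black bars are list medians. Tubulins and kinesins have a median of 1.25 and glutathione transferases one of -1.42.

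Markers of the root cap stood with the procambium side. Of 8 root cap markers 2 had a named probe set. RCPG, a root cap polygalacturonase, stood at 3.83, 7.65 and 3.49 in transition cambium and at 10.34, 11.50 and 11.00 in procambium. PASPA3, a protease of dying lateral root cap cells, stood at 7.12, 6.20 and 4.09 against 8.95, 9.11 and 9.35. Neither overlapped between the zones, as for 44.7% of all probe sets. Both were called, against 14% of all genes called higher in procambium. The summed level of the pair ranged from 4.82 to 8.10 in transition cambium, from 10.80 to 11.75 in procambium, and from 4.25 to 5.96 in BAP-treated cambium. In untreated roots it ranged from 7.05 to 7.88 in transition cambium and from 9.31 to 10.12 in procambium, where neither gene was called between the zones. The test of the change with BAP called 1 of the 2 genes, in the negative direction, against 229 of all 7036 genes. The median of the summed level over the 2 arrays of ARR5::GFP cells was 14.74.

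A further description used no BAP array to choose its members: 72 of all 22746 probe sets were at log2 8 or more in both ARR5::GFP arrays and below log2 5 on all untreated ARR15::GFP arrays. Their median was 6.72, 7.09 and 7.43 on the procambium arrays and 3.83, 3.65 and 2.80 on the transition cambium arrays. It was 2.45, 2.23 and 2.49 in BAP-treated cambium. On the procambium arrays 53, 58 and 57 of the 72 reached log2 5, and on the transition cambium arrays 23, 21 and 7. Transition cambium replicate 3 was thus lowest of its zone, as for sks15, a SKU5-similar protein, at 9.72, 9.05 and 5.49, and for hemb2, at 8.8, 8.0 and 4.1. Of the probe sets called higher in procambium 87% were at log2 5 or more in both ARR5::GFP arrays, against 56.8% of those higher in transition cambium and 77.8% of those not called. Those cells are labelled as procambium as well as lateral root cap. In untreated procambium the medians of the same 3 sets were 8.01, 6.33 and 7.36. The part of root cap cells in the zone difference was not tested. In sorted bulk RNA, fewer cells of a type and less RNA per cell cannot be told apart.

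**Figure D3:**
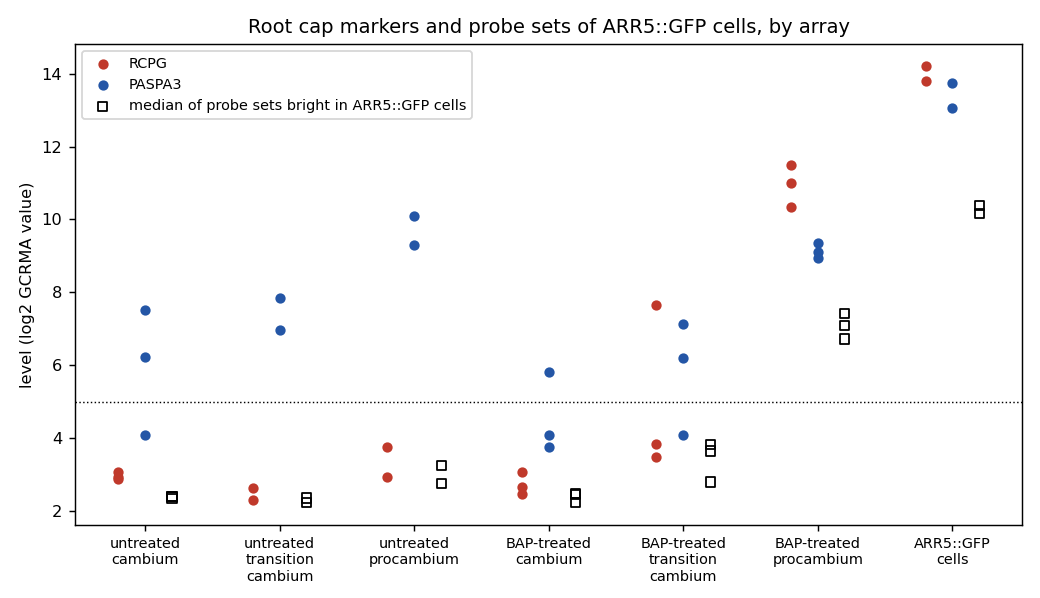
Levels (y axis, log2 GCRMA value) by group of RCPG (red) and PASPA3 (blue), and the median of the 72 probe sets bright in ARR5::GFP cells and dim on untreated arrays (open squares), with 1 point per array. The dotted line marks log2 5. The squares sit at 6.72 to 7.43 in BAP-treated procambium and at 2.80 to 3.83 in BAP-treated transition cambium.

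Markers of other tissues were few. The endodermal receptor GSO1 was higher in procambium by 3.07 on the log2 scale, and without transition cambium replicate 3 it was not called (adjusted p = 0.0564, limma). Of 15 phloem markers 2 were measured, and they went in opposite directions. OPS, of the early phloem, was at least 1.88-fold higher in transition cambium, where 14.3% of all genes were called. The other, the sugar carrier SWEET11, lay towards procambium at -2.15 and did not pass the test (adjusted p = 0.052, limma). The xylan gene GUT2 (IRX10), at 1.47, did not pass either (adjusted p = 0.10, limma).

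Whether the zone difference depended on BAP was tested as the difference of the zone contrasts with and without it. Cells of both conditions were sorted through a cytokinin-responsive promoter. A change in the cells sorted and a change within cells cannot be told apart here, and neither was tested. Of 13202 probe sets 696 (5.27%) were called, 288 (2.18%) positive and 408 (3.09%) negative. The count was 359 and 451 without untreated transition cambium replicate 1 and 2, 454 and 373 without BAP-treated transition cambium replicate 1 and 3, and 386 without BAP-treated procambium replicate 3. On the 10 arrays of the 4 groups alone it was 448. With each array centred on its median the split was 348 and 316, and the median over all probe sets went from -0.02 to 0.13. In untreated seedlings 28.2% of probe sets were called between the zones, 15.6% higher in transition cambium and 12.5% higher in procambium. The contrasts with and without BAP share no array. Higher in transition cambium in both were 999 probe sets, 48.1% of the BAP list and 48.4% of the untreated list. Higher in procambium in both were 892, or 49.9% and 53.9%. Opposite calls were made for 13 and 34.

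NANA, a plastid aspartic protease, had the largest positive change among named genes. After BAP it stood at 8.98, 8.58 and 9.99 in transition cambium against 4.88, 5.15 and 4.71 in procambium, whereas untreated arrays stood at 6.18 and 6.30 against 9.19 and 7.57. The difference went from -2.14 to 4.27. BGLU47 was at the floor in both untreated zones and at 6.65, 6.20 and 7.49 in transition cambium after BAP. SP1L2, a SPIRAL1-like microtubule protein, stood at 10.44, 10.01 and 10.80 after BAP against 3.01 and 4.84 in untreated transition cambium. Its change was lost when any of 7 arrays was left out, with adjusted p from 0.0544 to 0.186 in limma.

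Among negative changes GH9C1 and GH9B6 were dim in both untreated zones and bright in procambium after BAP. GH9C1 also stood at 10.59 and 8.11 in ARR5::GFP cells, and GH9B6 at 9.79 and 11.07. ARPN, a plantacyanin, was at 7.99 and 7.500 in untreated transition cambium and at the floor on all 6 BAP arrays. ROXY1, a glutaredoxin, was at 5.76 and 6.87 in untreated transition cambium and below log2 5 on all 6 BAP arrays.

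**Figure D4:**
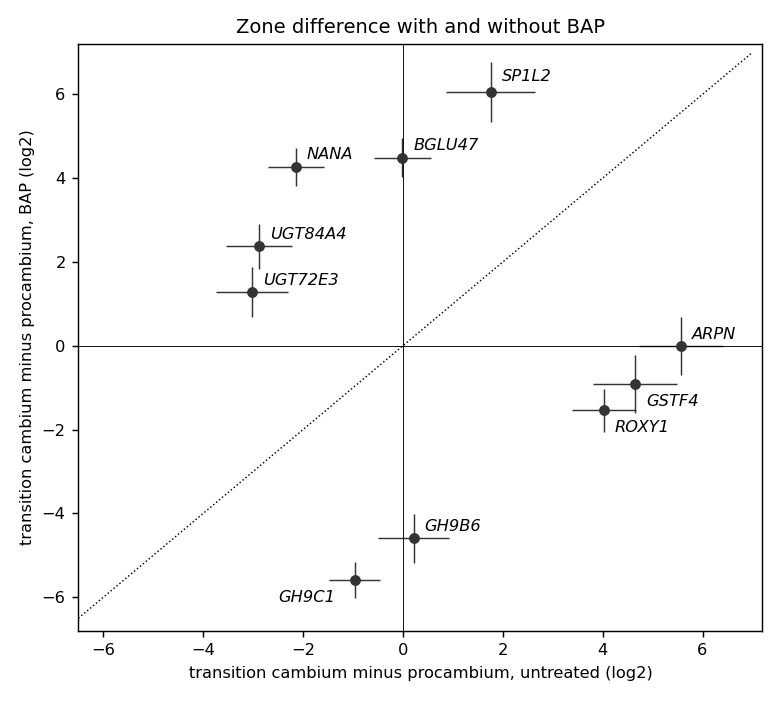
Zone difference (transition cambium minus procambium, log2) in untreated seedlings (x axis) and after BAP (y axis) for the 10 named genes with the largest change between conditions. Bars are standard errors of the fit, and the dotted line marks equal differences. NANA lies at -2.14 and 4.27, and ARPN at 5.56 and 0.00.

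Few probe sets were called between BAP-treated cambium and transition cambium. That comparison shares its transition cambium arrays with the main one, and 167 of 13202 probe sets (1.26%) were called, 79 (0.598%) higher in cambium and 88 (0.667%) higher in transition cambium. With no filter on dim values 82 were called and the split turned to 49 and 33. It also turned without transition cambium replicate 2 (42 and 34) or 1 (63 and 45), and without cambium replicate 1 (48 and 38), 2 (58 and 47) or 3 (52 and 45). Of the genes named above, sks15 was lower in cambium by 5.23 on the log2 scale, at 3.43, 2.17 and 2.98, and GH9B6 by 2.61. ARPN was higher in cambium by 3.03, at 5.50, 4.88 and 5.24.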

How the data were processed

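The deposited log2 values had been made by the authors with GCRMA, per the submitters' processing notes; no source used here gives a version or a build. Arrays measured amplified RNA of sorted GFP-positive protoplasts. From these log2 values, 22746 probe sets other than 64 controls were filtered to 13202 at log2 5 or more on at least 2 of 16 ARR15::GFP arrays. A mean per group was fitted with limma 3.58.1 in R 4.3.3 (10 residual degrees of freedom, intensity trend). Labels call the arrays biological replicates; their number limits the precision. On simulated data the fit was checked before use.

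Symbols came from a probe annotation and the RefSeq table: 13513 probe sets had 1 gene, 503 several and 8730 were not listed. A gene was represented by its brightest probe set. Genes are named by rank among called genes with non-overlapping arrays and a difference of at least 1 (per direction, 10 measured on both sides, 10 by lower bound, and 3 of up to 5 with a locus code only). A further 5 per direction are named by change with BAP, past adjusted p 0.05 in that test alone, and others by list. The reference table has no descriptions, so synonyms served for the locus codes. Members and lists were chosen with earlier results of these data known, and 10 lists after the array's gene names were read. Lists matched by name keep all their matches except KIN17, dropped from the kinesins before any fit. The set bright in ARR5::GFP cells was chosen after seeing the data.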

Additional observations from a re-analysis of the deposited data

Results flagged for a closer look

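For 17 of the genes named by rank the zone difference changed between untreated and BAP-treated seedlings by a test of that change (limma, adjusted p below 0.05). Genes named only by list were not counted here, and LHW and AUR1 among them also passed that test. Positive changes, on the log2 scale, were 6.41 for NANA, 5.25 for UGT84A4, 4.5 for BGLU47, 4.31 for UGT72E3, 4.3 for SP1L2, 4.14 for SBTI1.1, 3.75 for ATMPK13, 2.69 for CCR2 and 2.44 for PTL. Negative changes were -5.57 for ROXY1, -5.57 for GSTF4, -5.56 for ARPN, -4.81 for GH9B6, -4.62 for GH9C1, -3.44 for KICP-02, -2.71 for BGLU44 and -2.45 for CCOAMT. SBTI1.1 differed by 0.10 without BAP and 4.24 with it. KICP-02 went from 1.60 to -1.83, where both untreated means, 4.93 in transition cambium and 3.32 in procambium, were below log2 5. Several of these genes, such as ATMPK13, PTL, BGLU47, ARPN and GH9C1, were at or near the floor in at least 1 group. Their changes are fitted values on the array scale, and no bounds were computed for them. UGT72E3, GSTF4 and ARPN passed this test but were not called between the zones after BAP. The change of UGT72E3 was lost without untreated transition cambium replicate 1 or untreated procambium replicate 1 (adjusted p = 0.0575 and 0.0689, limma), and that of GSTF4 without untreated transition cambium replicate 1 (adjusted p = 0.0504, limma).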

How the results depend on the processing

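The number of zone calls after BAP was 3441 with no filter, 3421 with a stricter filter, 3881 with centred arrays, 3850 with quantile normalization, 3785 with no trend and 3455 on the 6 arrays alone. Leaving out 1 array gave 2575 to 3454, with 2575 without transition cambium replicate 3. With the replicate number as a block 3950 were called, 3652 of them shared. The labels state no pairing. Deviations of same-numbered arrays from their zone mean correlated at 0.0386, 0.0908 and 0.0327, against -0.0507 to 0.0137 for different numbers. Each array correlated best with its own number. Deviations from a mean of 3 arrays are tied to each other, so these small values cannot decide whether arrays were paired. For the change with BAP, the 10 arrays of the 4 groups alone gave 448 calls and leaving out 1 array gave 359 to 743, with 359 without untreated transition cambium replicate 1, 373 without BAP-treated transition cambium replicate 3, 386 without BAP-treated procambium replicate 3, 451 without untreated transition cambium replicate 2 and 454 without BAP-treated transition cambium replicate 1. For cambium against transition cambium, no filter gave 82 calls and leaving out 1 array 76 to 177, with 76 and 108 without transition cambium replicate 2 and 1, and 86, 105 and 97 without cambium replicates 1, 2 and 3. Over single named genes and settings, 4996 values kept their side of the threshold, 304 lost the call and 67 gained it. Among values called in either setting 0 reversed direction, and changes of sign among values not called were not counted. The values of 20 genes ran from 3.57 to 26.8 with log2 4 as the dim level, and their bounds from 1.35 to 6.71 with log2 6. Values of genes not dim at log2 4 are not bounds: 3.57 is the fitted fold of KICP-02, which was above log2 4 on every transition cambium array. The causes were not tested. With ARR5::GFP brightness at log2 7, chosen after seeing the data, the shares were 67.5%, 32.9% and 48.4%, and 30 probe sets at log2 10 had medians of 8.41 to 8.76 in procambium and 3.35 to 5.50 in transition cambium.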

Other observations

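Calls were spread over the nuclear chromosomes, and the plastid-encoded genes, described above, are not in these ranges. The share of genes higher in transition cambium ran from 12.4% on chromosome 3 to 15.6% on chromosome 4, and the share higher in procambium from 13.3% on chromosome 1 to 15.1% on chromosome 5. Of 2039 pairs of adjacent protein-coding genes both kept, 179 (8.78%) were both called, 52% of those in the same direction. For genes 10 places apart the shares were 7.92% and 51.7%.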
